A study of Homo sapiens with 8 samples.

Results

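The 9 mRNAs described here encode proteins that bind messenger RNA in cytoplasmic granules: the Y-box proteins YBX1 and YBX3, the stress-granule proteins G3BP1, G3BP2 and CAPRIN1, the fragile X family FMR1, FXR1 and FXR2, and TIA1. They were 9 of the 60196 gene symbols measured. The set was chosen by family name, and YBX1 was singled out in an earlier look at these data for its difference between the 2 cell lines in the split between P-bodies and cytosol. The values that chose YBX1, its P-body and cytosolic levels in both lines and the difference between them, are therefore given as a description, with no test. For the other 8 mRNAs the difference between lines is given in the same way. All 9 passed the filter on low counts in each line.

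RNA of P-body preparations and of the cytosolic fraction was sequenced from HEL and MOLM-13, both human acute myeloid leukaemia lines. HEL derives from an erythroleukaemia, whereas MOLM-13 has monocytic character. Each fraction of each line had 2 libraries, which makes 4 groups, and the labels give no treatment, genotype or time for any of them. Each line is a single established line, so a difference between HEL and MOLM-13 is between those lines and not between types of leukaemia. The labels do not state the method of P-body isolation.

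P-bodies and stress granules are both assemblies of RNA and protein without a membrane. P-bodies are present in growing cells and hold mRNAs together with decay and repression factors, whereas stress granules form when translation initiation stalls. G3BP1 and G3BP2 are the scaffold of stress granules, and their clustering on free mRNA starts the assembly. The results below concern the location of the mRNAs that encode these proteins, not the location of the proteins.

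Within a family the proteins share stretches of identical amino acids that are encoded by different bases, and the mRNAs of this set differ widely in base composition. The coding sequences of such shared stretches are shown because they let the mRNAs of a family be compared base by base where the protein is the same. In the fragile X family the mRNAs fell on both sides of the split between P-bodies and cytosol. They were read from GENCODE release 29 on GRCh38, 5′ to 3′ on the coding strand with introns left out, and capitals mark a G or C at the third position of each codon. The Y-box stretch encodes 40 of 73 identical residues in a row and spans exons 1 to 4 of each gene, at chr1:42682731-42696219 on the plus strand for YBX1 and chr12:10715763-10722850 on the minus strand for YBX3.
YBX1: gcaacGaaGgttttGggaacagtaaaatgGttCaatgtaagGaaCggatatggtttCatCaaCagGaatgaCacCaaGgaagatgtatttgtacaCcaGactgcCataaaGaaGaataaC
YBX3: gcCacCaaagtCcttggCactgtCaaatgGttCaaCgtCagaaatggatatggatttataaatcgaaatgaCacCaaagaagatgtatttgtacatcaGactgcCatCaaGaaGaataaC
A G or C ended 20 of 40 codons in YBX1 and 17 of 40 in YBX3, and 22 of the 120 bases differed. Over the whole coding sequence the order was the reverse, with 51.8% of codons ending in G or C in YBX1 and 55.4% in YBX3.

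The G3BP stretch is the first 24 codons in exon 2, at chr5:151786621-151786692 on the plus strand for G3BP1 and chr4:75661954-75662025 on the minus strand for G3BP2.
G3BP1: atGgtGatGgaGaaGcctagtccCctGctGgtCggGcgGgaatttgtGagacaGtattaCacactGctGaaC
G3BP2: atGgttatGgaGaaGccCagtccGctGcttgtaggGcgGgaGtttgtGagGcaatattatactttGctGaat
Here 17 of 24 codons of G3BP1 and 14 of 24 of G3BP2 ended in G or C, and 12 of 72 bases differed. This start of the coding sequence is unlike the rest, since over the whole coding sequence the share at the third position was 40.8% in G3BP1 and 29.2% in G3BP2. The fragile X stretch covers 18 codons of exon 5, at chrX:147928659-147928712 on the plus strand for FMR1, chr3:180948347-180948400 on the plus strand for FXR1 and chr17:7603852-7603905 on the minus strand for FXR2.
FMR1: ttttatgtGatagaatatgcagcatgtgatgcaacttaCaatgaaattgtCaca
FXR1: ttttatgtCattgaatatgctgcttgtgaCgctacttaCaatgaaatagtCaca
FXR2: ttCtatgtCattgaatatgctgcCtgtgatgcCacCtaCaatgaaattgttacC
A G or C ended 3 of 18 codons in FMR1, 4 in FXR1 and 7 in FXR2. FXR1 differed from FMR1 at 7 of the 54 bases and FXR2 at 9. Over the whole coding sequence the share of codons ending in G or C was higher, at 34.6% in FMR1, 31.1% in FXR1 and 58.4% in FXR2.

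Levels are given as CPM, the counts of a gene scaled to a common library size, after TMM normalisation within each line. A change is the log2 ratio of P-body to cytosol from edgeR's quasi-likelihood fit. Its standard error (SE) was derived from the test, as the size of the change divided by the square root of the F statistic. A gene was called when its p, adjusted over all tested genes, was below 0.05. With no external standard in the counts used, a change is measured against most other genes of those libraries. In RNA pooled from many cells, fewer cells that carry an mRNA and less of it per cell cannot be told apart.

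YBX1 encodes an abundant cold-shock domain protein that coats mRNA and is also known as a translational regulator. In HEL its mRNA stood at 197 and 209 CPM in the P-body libraries and at 198 and 197 CPM in the cytosolic libraries. The groups overlapped, and the log2 change was 0.04 (SE 0.073). In MOLM-13 it stood at 525 and 524 CPM in the P-body libraries and at 997 and 974 CPM in the cytosolic libraries. Both P-body libraries of MOLM-13 were well below both cytosolic libraries, a log2 change of -0.91 (SE 0.042), or 1.88-fold lower in P-bodies. When library totals replaced the TMM factors, the median change of all genes shifted by -0.33 in HEL and -0.44 in MOLM-13, and YBX1 was at -0.28 in HEL and -1.35 in MOLM-13.

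The fit of all 8 libraries gave YBX1 a difference between lines, MOLM-13 minus HEL, of -1.14 (SE 0.082), against a median of -0.11 over the 17477 tested genes. The size of this value was not extreme, since 11.5% of tested genes had a lower one. It also moved with single libraries: without HEL P-body replicate 1 it was -0.87, and without HEL cytosol replicate 1 or replicate 2 it was -0.85. The median difference of all genes moved up by 0.28 to 0.3 in those 3 fits.

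Processed pseudogenes could take some of YBX1's reads. The 10 counted YBX1 pseudogenes together held 2.37% to 3.6% as many counts as YBX1 in a library. YBX1P1, the pseudogene with the highest level in MOLM-13, had 59 and 60 counts in the P-body libraries and 116 and 122 in the cytosolic libraries. YBX1P10 had 49 and 33 counts against 59 and 68, and YBX1P2 had 10 and 9 against 21 and 25. Their pattern in MOLM-13 was thus like that of YBX1, and reads of the gene and of its copies may have been split between them.

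YBX3 encodes the other Y-box protein of the set, a repressor of translation in germ cells, and its mRNA was lower in P-bodies of both lines. HEL had 172 and 193 CPM in P-bodies and 229 and 245 CPM in cytosol. MOLM-13 had 65.9 and 83.0 CPM in P-bodies and 101 and 105 CPM in cytosol. The groups did not overlap in either line. The log2 change was -0.38 (SE 0.079, adjusted p = 0.000873) in HEL and -0.47 (SE 0.084, adjusted p = 2.95e-05) in MOLM-13. The MOLM-13 value was -0.29 (adjusted p = 0.00796) without P-body replicate 1 and -0.91 (adjusted p = 2.8e-08) with library totals.

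**Figure D1:**
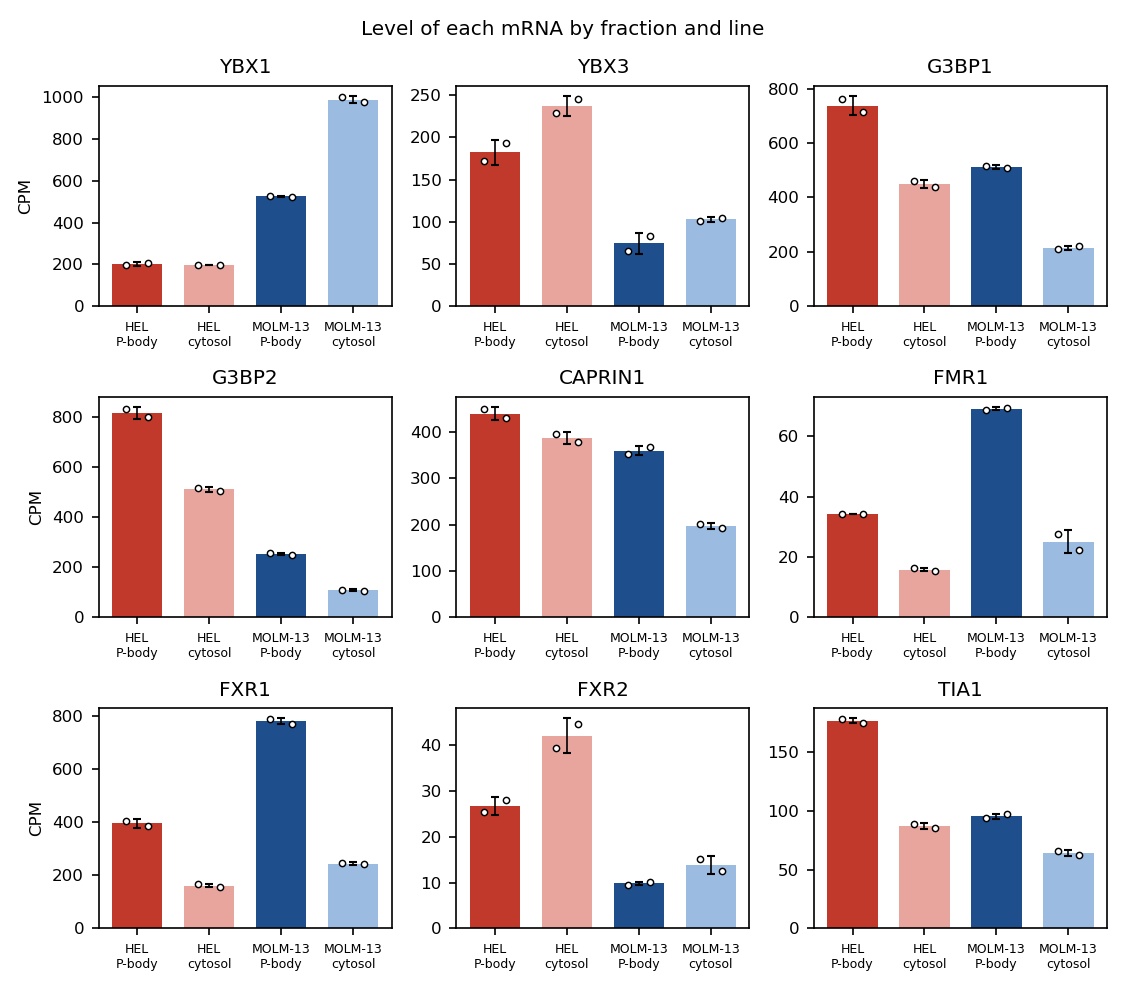
Level of each mRNA in CPM, scaled within each line. Bars are means of 2 libraries, whiskers are SD and circles are the libraries. YBX1 is at 525 CPM in MOLM-13 P-bodies and 985 CPM in MOLM-13 cytosol, while its HEL libraries lie between 197 and 209 CPM.

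Of the 8 mRNAs other than YBX1, 6 were called higher in P-bodies and 2 were called lower, in HEL and in MOLM-13 alike. The 6 were G3BP1, G3BP2, CAPRIN1, FMR1, FXR1 and TIA1, and the 2 were YBX3 and FXR2. Among all genes tested in HEL, 27.5% were called higher and 27.1% lower. In MOLM-13 these shares were 32.4% and 28.5%. The balance depended on the scaling: in HEL 4061 genes were called higher and 4006 lower with TMM but 2762 and 6761 with library totals, and in MOLM-13 4558 and 4015 became 2903 and 7154. The median change of the 9 mRNAs was 0.67 in HEL, where the median of all tested genes was -0.06, and 0.87 in MOLM-13, where it was -0.04. With library totals 2 of the calls of the 8 mRNAs did not hold: CAPRIN1 in HEL was at -0.14 (adjusted p = 0.0535) and TIA1 in MOLM-13 at 0.14 (adjusted p = 0.0914).

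G3BP1 was the mRNA with the longest transcript of the set, and it rose in P-bodies of both lines. In HEL the P-body libraries held 761 and 714 CPM and the cytosolic libraries 459 and 438 CPM. The MOLM-13 values were 516 and 507 CPM against 210 and 221 CPM. There was no overlap, and the mRNA was 1.64-fold higher in HEL P-bodies (log2 change 0.72, SE 0.07, adjusted p = 5.06e-07) and 2.38-fold higher in MOLM-13 P-bodies (1.25, SE 0.049, adjusted p = 4.09e-17).

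G3BP2, its close relative, changed by almost the same amount. HEL P-bodies held 833 and 801 CPM, and HEL cytosol 519 and 506 CPM. MOLM-13 P-bodies held 256 and 251 CPM, and MOLM-13 cytosol 111 and 107 CPM. P-body libraries were thus above cytosolic libraries in each line, by 1.59-fold in HEL (log2 change 0.67, SE 0.067, adjusted p = 7.11e-07) and 2.33-fold in MOLM-13 (1.22, SE 0.057, adjusted p = 1.24e-15).

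CAPRIN1, whose protein binds G3BP1 and promotes granule assembly, had the least change of the 6 in HEL. Its HEL levels were 449 and 430 CPM in P-bodies and 396 and 378 CPM in cytosol, without overlap. The log2 change was 0.18 (SE 0.068, adjusted p = 0.0357), and the call was lost without HEL P-body replicate 1 (0.16, adjusted p = 0.0913), HEL cytosol replicate 1 (0.21, adjusted p = 0.0856) or HEL cytosol replicate 2 (0.15, adjusted p = 0.268). In MOLM-13 it had 353 and 367 CPM in P-bodies and 202 and 192 CPM in cytosol. These groups were far apart, with a log2 change of 0.87 (SE 0.051, adjusted p = 1.56e-13).

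The fragile X family split between its members. FMR1 encodes FMRP, an RNA-binding repressor of translation whose loss causes fragile X syndrome. FMR1 had 34.2 and 34.4 CPM in HEL P-bodies and 16.3 and 15.4 CPM in HEL cytosol. In MOLM-13 it had 68.9 and 69.5 CPM in P-bodies and 27.7 and 22.3 CPM in cytosol. It was 2.17-fold higher in HEL P-bodies (log2 change 1.11, SE 0.12, adjusted p = 1.41e-06) and 2.79-fold higher in MOLM-13 P-bodies (1.48, SE 0.1, adjusted p = 2.71e-12).

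FXR1, a paralog of FMR1, showed the greatest change of the 9 mRNAs in both lines. HEL P-bodies held 407 and 385 CPM against 166 and 157 CPM in cytosol. MOLM-13 P-bodies held 789 and 773 CPM against 248 and 241 CPM in cytosol. No library crossed between the groups, and the log2 change was 1.29 (SE 0.073, adjusted p = 1.22e-09) in HEL and 1.68 (SE 0.046, adjusted p = 5.25e-20) in MOLM-13.

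FXR2, the other paralog, moved the opposite way. It had 25.4 and 28.1 CPM in HEL P-bodies and 39.4 and 44.7 CPM in HEL cytosol. MOLM-13 had 9.55 and 10.1 CPM in P-bodies and 15.2 and 12.5 CPM in cytosol, from only 85 to 103 counts per library. The groups did not overlap, and FXR2 was lower in P-bodies by 1.58-fold in HEL (log2 change -0.66, SE 0.11, adjusted p = 0.000194) and by 1.4-fold in MOLM-13 (-0.49, SE 0.17, adjusted p = 0.0189). In MOLM-13 the call was lost without P-body replicate 1 (-0.43, adjusted p = 0.079) or cytosol replicate 1 (-0.32, adjusted p = 0.22), with DESeq2 (-0.48, adjusted p = 0.127) and with no filter on low counts (-0.45, adjusted p = 0.0649).

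TIA1 encodes an RNA-binding protein with a prion-like domain that silences mRNAs under stress and also acts in splicing. HEL libraries held 178 and 175 CPM in P-bodies and 88.6 and 85.2 CPM in cytosol. MOLM-13 libraries held 93.9 and 96.9 CPM in P-bodies and 66.0 and 62.0 CPM in cytosol. P-body libraries were higher in both lines, by 2.03-fold in HEL (log2 change 1.02, SE 0.078, adjusted p = 3.4e-08) and by 1.49-fold in MOLM-13 (0.58, SE 0.074, adjusted p = 2.25e-07).

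**Figure D2:**
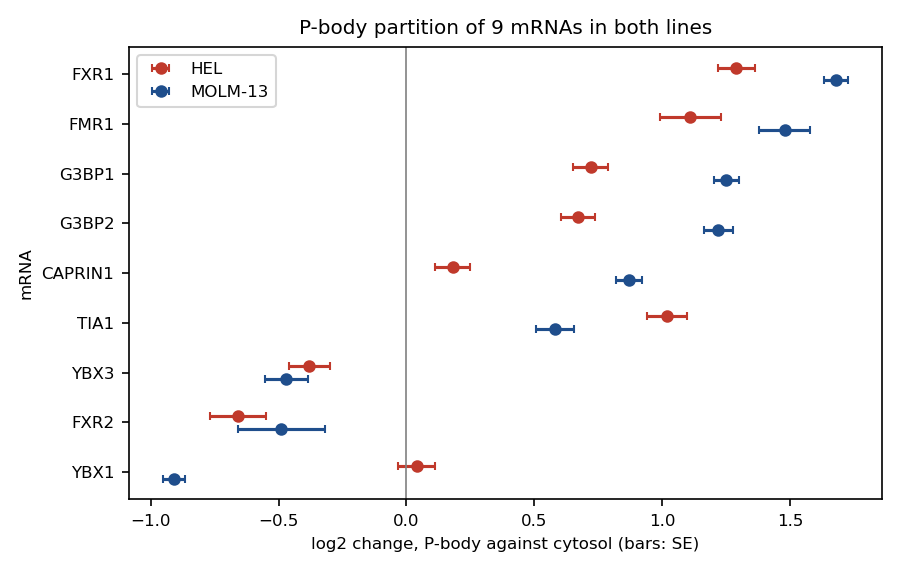
Log2 change of P-body against cytosol for each mRNA in HEL (red) and MOLM-13 (blue), with SE bars from the fit of each line. YBX1 lies at 0.04 in HEL and -0.91 in MOLM-13, and FXR1 has the highest values, 1.29 and 1.68.

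Set side by side, the differences between lines in the fit of 8 libraries had both signs, and they are a description only. TIA1 had -0.64 (SE 0.11) and YBX3 -0.29 (SE 0.13), the same sign as YBX1. FXR2 had no settled sign, at -0.02 (SE 0.2) in this fit, 0.05 with RLE size factors, DESeq2 or no filter, 0.06 with library totals, and -0.16 to 0.36 with single libraries left out. CAPRIN1 had 0.5 (SE 0.086), G3BP2 0.36 (SE 0.085), G3BP1 0.34 (SE 0.086), FXR1 0.19 (SE 0.086) and FMR1 0.17 (SE 0.16). For YBX3 the sign turned without HEL cytosol replicate 1, where the difference was 0.06, and the value was -0.05 without HEL P-body replicate 1 or HEL cytosol replicate 2, -0.12 without MOLM-13 P-body replicate 1 and -0.45 without MOLM-13 P-body replicate 2.

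The other differences also moved when single HEL libraries were left out. Without HEL P-body replicate 1, HEL cytosol replicate 1 or HEL cytosol replicate 2, CAPRIN1 was at 0.84, 0.76 and 0.82, G3BP2 at 0.7, 0.64 and 0.66, and G3BP1 at 0.7, 0.6 and 0.66. In the same order FXR1 was at 0.54, 0.45 and 0.52, FMR1 at 0.48, 0.43 and 0.5, and TIA1 at -0.31, -0.37 and -0.32. These are the fits in which the median of all genes moved up, by 0.3, 0.29 and 0.28 in that order. FMR1 was also at 0.32 without MOLM-13 cytosol replicate 1 and at 0.02 without MOLM-13 cytosol replicate 2. Subtracting the separate fits of the lines gave 0.69 for CAPRIN1, 0.55 for G3BP2, 0.53 for G3BP1, 0.38 for FXR1, 0.36 for FMR1, 0.17 for FXR2, -0.1 for YBX3, -0.44 for TIA1 and -0.95 for YBX1.

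The lines also differed in how much of each mRNA they held. YBX1 was 5.41-fold higher in MOLM-13 cytosol than in HEL cytosol (log2 change 2.43, SE 0.06) and 2.45-fold higher in MOLM-13 P-bodies than in HEL P-bodies (1.29, SE 0.059). The 4 MOLM-13 libraries were all above the 4 HEL libraries, and no p is given because these contrasts make up the difference that chose YBX1. Of the other 8 mRNAs, FMR1 and FXR1 were called higher in MOLM-13 and the remaining 6 lower, in cytosol and in P-bodies. Across all 17477 genes tested, 44.2% were called higher and 40.1% lower in MOLM-13 cytosol, so most genes differed there. In P-bodies the shares were 41% and 40.8%.

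G3BP2 had the greatest fall of the 6, being 4.35-fold lower in MOLM-13 cytosol (log2 change -2.12, SE 0.063, adjusted p = 7.98e-18) and 3.39-fold lower in MOLM-13 P-bodies (-1.76, SE 0.06, adjusted p = 6.26e-17). G3BP1 was 1.92-fold lower in cytosol (-0.94, SE 0.063, adjusted p = 6.9e-12), and CAPRIN1 1.82-fold lower (-0.86, SE 0.062, adjusted p = 3.22e-11). FXR2 was 2.83-fold lower in cytosol (adjusted p = 2.02e-09) and YBX3 2.12-fold (adjusted p = 2.56e-10). FXR1 was 1.64-fold higher in MOLM-13 cytosol (adjusted p = 8.32e-10) and 1.87-fold higher in P-bodies (adjusted p = 6.71e-12), and FMR1 was 1.7-fold (adjusted p = 1.09e-05) and 1.91-fold (adjusted p = 5.32e-08) higher. TIA1 was 1.26-fold lower in cytosol (-0.33, SE 0.078, adjusted p = 0.000632), a call that a filter at 5 CPM ended (-0.09, adjusted p = 0.285), and 1.95-fold lower in P-bodies (adjusted p = 7.35e-11). The scale of all these contrasts moved with the filter on low counts. With no filter the median of all genes shifted by -0.29 in cytosol and -0.22 in P-bodies. A filter at 5 CPM shifted it by 0.24 and 0.17. In cytosol YBX1 was at 2.15 with no filter and 2.68 at 5 CPM, and FXR1 at 0.42 and 0.96, moves larger than their SEs. The tables of the lines were deposited separately, and any batch that differs with the line cannot be told apart from it.

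Levels of different mRNAs can be compared only per length, here as CPM per kilobase of the single annotated transcript used for each gene. Whether those transcripts were the forms expressed was not tested, and the order depends on their lengths. In MOLM-13 YBX1 led the 9 in cytosol at 651 ± 11.0 and in P-bodies at 346 ± 0.574 (SD, n = 2). YBX3 came next in MOLM-13 cytosol at 57.3 ± 1.26, and FXR1 in MOLM-13 P-bodies at 89.6 ± 1.3. In HEL cytosol YBX3 at 132 ± 5.99 and YBX1 at 130 ± 0.244 led the order and overlapped. In HEL P-bodies G3BP2 led at 167 ± 4.56, ahead of YBX1 at 134 ± 5.78. FMR1 and FXR2 were the lowest in each group, FMR1 at 3.68 ± 0.148 in HEL cytosol and FXR2 at 3.32 ± 0.126 in MOLM-13 P-bodies. Other neighbours in the order that overlapped were TIA1 and FXR1 in HEL cytosol, CAPRIN1 and YBX3 in HEL P-bodies, and FXR1 and CAPRIN1 in MOLM-13 P-bodies.

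The 2 mRNAs that were called lower in P-bodies, together with YBX1, had the highest GC content of the 9. FXR2 (chromosome 17, 7591230 to 7614871, minus strand) had a transcript GC content of 59.2%, YBX3 (chromosome 12, 10699089 to 10723312, minus strand) 56.4% and YBX1 (chromosome 1, 42682427 to 42702349, plus strand) 51.3%. The other 6 ran from 36.6% for TIA1 (chromosome 2, 70209444 to 70248660, minus strand) to 44.6% for CAPRIN1 (chromosome 11, 34051683 to 34101156, plus strand). The same 3 mRNAs had the shortest 3′ untranslated regions (UTRs), of 400 bases in YBX1, 476 in YBX3 and 600 in FXR2. Those of the other 6 ran from 1789 bases in CAPRIN1 to 8694 in G3BP1 (chromosome 5, 151771045 to 151812785, plus strand).

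Coding genes at large showed the same direction. Across 11945 coding genes in HEL the Spearman correlation of the change with transcript GC content was -0.67, and across 11230 in MOLM-13 it was -0.72. These are correlations across genes, which are not independent and share the libraries. The correlation with the length of the 3′ UTR was 0.21 in HEL and 0.22 in MOLM-13. Coding genes with 50 to 55% GC, the range that holds YBX1, had a median change of -0.3 in HEL and -0.16 in MOLM-13. YBX1 was above that median in HEL, at 0.04, and below it in MOLM-13, at -0.91.

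When a smooth trend with GC content and length was removed, many changes shrank, but that of YBX1 in HEL went from 0.04 to 0.22 (SE 0.049). In MOLM-13 YBX1 was then at -0.69, and FXR1 (0.95, adjusted p = 4.84e-15), FMR1 (0.7, adjusted p = 2.57e-06), G3BP2 (0.6, adjusted p = 1.88e-09), G3BP1 (0.55, adjusted p = 8.64e-10) and CAPRIN1 (0.44, adjusted p = 7.72e-08) still passed the test. TIA1 turned to -0.21 (adjusted p = 0.0201). YBX3 at -0.08 (adjusted p = 0.412) and FXR2 at -0.08 (adjusted p = 0.744) no longer passed. In HEL FXR1 (0.46, adjusted p = 2.83e-05), FMR1 (0.33, adjusted p = 0.0191), TIA1 (0.15, adjusted p = 0.0424) and G3BP2 (0.13, adjusted p = 0.0205) passed, whereas YBX3 was at 0.02, G3BP1 at -0.07, CAPRIN1 at -0.11 and FXR2 at -0.14 with adjusted p from 0.0687 to 0.798. What lies behind the trend with GC content was not tested.

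**Figure D3:**
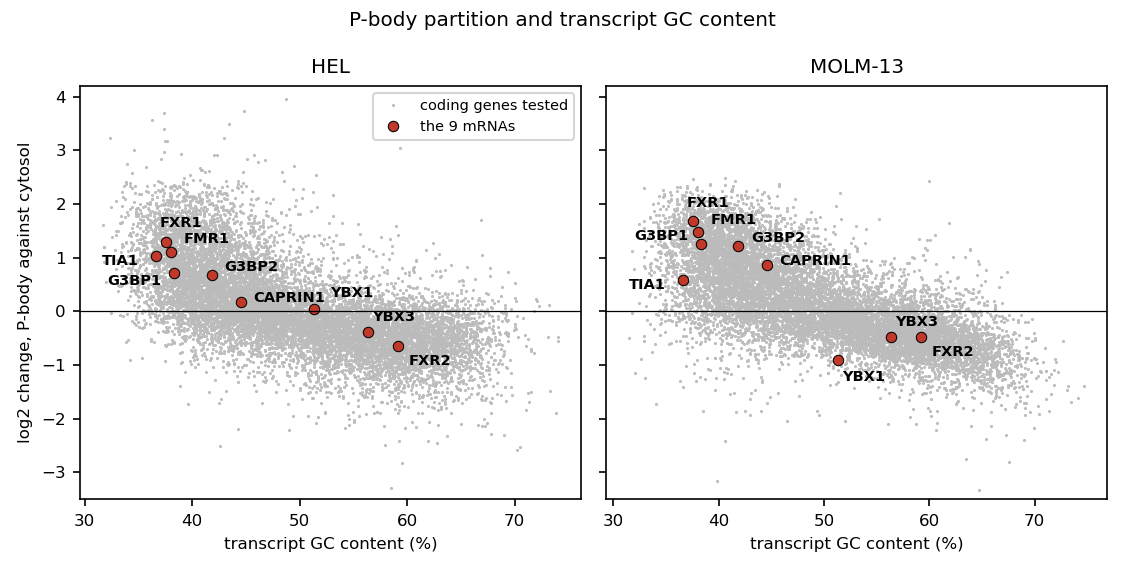
Log2 change of P-body against cytosol and transcript GC content of coding genes (grey) and of the 9 mRNAs (red) in HEL and MOLM-13. FXR2, YBX3 and YBX1 have 51.3% GC or more, and 1 coding gene in HEL lies above the axis limit of 4.2.

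The wider stress-granule proteome was described with a list of 44 further proteins. In HEL 17 of their mRNAs were called higher in P-bodies, 16 lower and 11 were not called, with a median change of 0.06. Over all genes tested in HEL 27.5% were higher and 27.1% lower, with a median of -0.06. In MOLM-13, where 43 were tested, 20 were higher, 14 lower and 9 not called, with a median of 0.1, where 32.4% and 28.5% of all genes were called and the median was -0.04. NUFIP2, which encodes a partner of FMRP, was 3.48-fold higher in HEL P-bodies (log2 change 1.8, SE 0.075, adjusted p = 6.67e-11). In MOLM-13 P-bodies NUFIP2 was 2.83-fold higher (1.5, SE 0.05, adjusted p = 1.94e-18). FAM98A was 4.31-fold higher in MOLM-13 P-bodies (2.11, SE 0.063, adjusted p = 2.02e-19) and 2.1-fold higher in HEL P-bodies (1.07, SE 0.071, adjusted p = 7.05e-09). EIF4G1, the scaffold of the cap-binding complex, was 2.11-fold lower in HEL P-bodies (adjusted p = 1.03e-08) and 1.71-fold lower in MOLM-13 P-bodies (adjusted p = 1.07e-11).

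**Figure D4:**
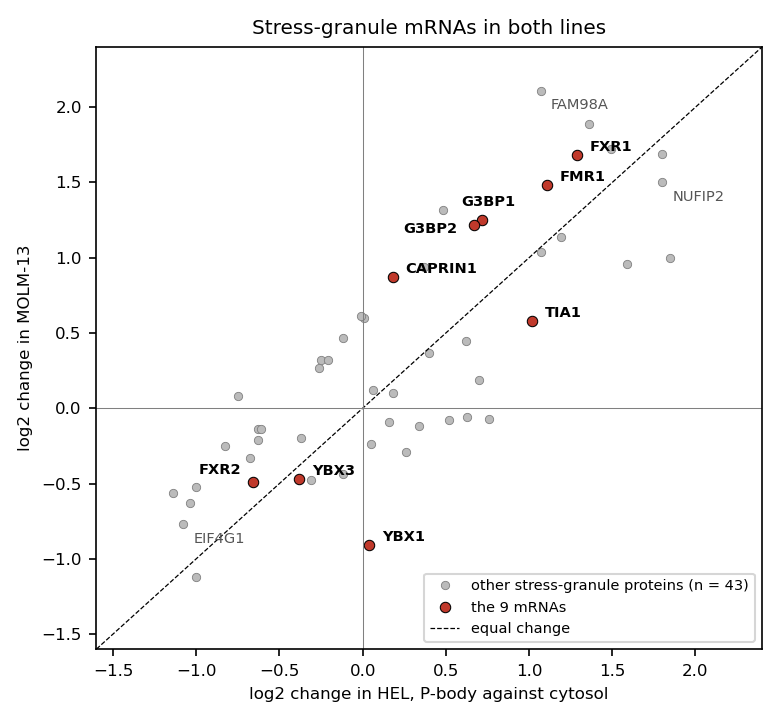
Log2 change of P-body against cytosol in HEL (horizontal axis) and MOLM-13 (vertical axis) for the 9 mRNAs (red) and 43 other stress-granule proteins tested in both lines (grey). The dashed line marks equal change, and YBX1 lies below it at 0.04 and -0.91.

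Other cold-shock domain proteins were measured as well. LIN28B, which blocks maturation of let-7 microRNAs, was tested in HEL only and was 4.02-fold higher in P-bodies (log2 change 2.01, SE 0.074, adjusted p = 3.32e-11). CARHSP1 was at -0.15 (SE 0.21, adjusted p = 0.581) in HEL and was 1.65-fold lower in MOLM-13 P-bodies (-0.73, SE 0.15, adjusted p = 0.000153). YBX2, LIN28A and CSDC2 had too few counts to be tested in either line.

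Of 6 partners of FMRP, 2 were called higher and 3 lower in HEL, and 2 of 5 higher and 1 lower in MOLM-13. Their median change was -0.04 in HEL and -0.06 in MOLM-13, and with so few mRNAs nothing is read from these counts beside the 27.5% higher and 27.1% lower of all genes in HEL and the 32.4% and 28.5% in MOLM-13. CYFIP1, which links FMRP to the cap-binding protein, was 1.87-fold lower in HEL P-bodies (adjusted p = 8.6e-08) and at -0.06 in MOLM-13 (SE 0.096, adjusted p = 0.581). RACK1, a protein of the small ribosomal subunit, was 1.69-fold lower in MOLM-13 P-bodies (-0.76, SE 0.043, adjusted p = 8.4e-14) and 1.19-fold lower in HEL P-bodies (adjusted p = 0.00527).

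Stress granules form downstream of phosphorylation of eIF2α, and 9 genes of that step and of the stress response after it were measured. In HEL 3 were called higher in P-bodies and 4 lower, and in MOLM-13 4 were higher and 1 lower. The shares of all genes called were 27.5% and 27.1% in HEL and 32.4% and 28.5% in MOLM-13, and the medians of the 9 were -0.13 and 0.09. EIF2AK2, the kinase activated by double-stranded RNA, was 2.21-fold higher in HEL P-bodies (adjusted p = 5.27e-09) and 2.1-fold higher in MOLM-13 P-bodies (adjusted p = 3.03e-11). EIF2S1, which encodes eIF2α, was 1.89-fold (adjusted p = 3.86e-08) and 2.52-fold (adjusted p = 5.63e-16) higher in the same order. PPP1R15A, a phosphatase subunit that reverses the modification, was 1.51-fold lower in HEL P-bodies (adjusted p = 1.44e-05) and at 0.02 in MOLM-13 (SE 0.064, adjusted p = 0.758). ATF4, a transcription factor of the stress response, was 1.15-fold lower in HEL P-bodies (adjusted p = 0.0247) and 1.17-fold lower in MOLM-13 P-bodies (adjusted p = 7.8e-05).

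The pattern of YBX1 over the 8 libraries was compared with that of 17476 other genes, as the Euclidean distance between log2(CPM + 0.5) values centred on each gene's mean. The median distance was 3.14. The nearest were MT-RNR1, the mitochondrial small ribosomal RNA (0.23), RPL11, a protein of the large ribosomal subunit (0.25), C20orf27 (0.26), ENSG00000242163 (0.26) and CCDC124 (0.26). RPL11 had a change of 0.04 in HEL and -0.74 in MOLM-13, and MT-RNR1 of -0.05 and -0.86. Both genes were picked for likeness to YBX1 in these same libraries, so changes like those of YBX1 follow from the pick. None of the other 8 mRNAs was among the nearest: FMR1 at 2.97 and FXR1 at 3.24 were about as far from YBX1 as the median gene, and the rest ran from 3.93 for CAPRIN1 to 5.81 for G3BP2. This distance takes in the level difference between lines as well as the split between fractions. In cytosol the log2 change of MOLM-13 against HEL was 2.43 for YBX1, 0.77 for FMR1, 0.71 for FXR1 and -2.12 for G3BP2. The symbol ENSG00000242163 had a mean of at most 3.51 CPM in a group and did not pass the filter in HEL.

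As sums, the erythroid and the monocytic markers fitted the labelled lines. Lymphoid markers, listed as belonging to neither line, were nevertheless counted in MOLM-13. All 12 erythroid and megakaryocytic markers reached a mean of 1 CPM in both HEL fractions, and all 13 monocytic and granulocytic markers did so in both MOLM-13 fractions. The erythroid sum was 1669 to 3074 CPM in HEL libraries and 50.1 to 78.2 CPM in MOLM-13 libraries, where GATA1, TAL1 and ITGA2B were among 5 markers at 0 in cytosol. The monocytic sum was 1917 to 2939 CPM in MOLM-13 libraries and 73.0 to 103 CPM in HEL libraries, with MPO and ELANE at 0 in both HEL fractions. Single markers such as EPOR and CD33 set the lines less apart. EPOR had 38.6 CPM in P-bodies and 50.1 in cytosol of HEL, and 25.5 and 31.4 in MOLM-13. CD33 had 44.6 and 47.5 CPM in HEL, and 65.9 and 80.1 in MOLM-13. Lymphoid markers summed to 1.7 to 2.98 CPM in HEL and to 112 to 183 CPM in MOLM-13. Most of the MOLM-13 sum was NKG7, at 76.5 CPM in P-bodies and 145 in cytosol, and CD3D, at 33.1 and 33.9. Mitochondrially encoded mRNAs were lower in P-body libraries of both lines, with sums of 3813 to 4114 against 6008 to 6722 CPM in HEL and of 5256 to 5351 against 8362 to 9572 CPM in MOLM-13. The sum of the nuclear-retained RNAs was 884 to 949 CPM in P-bodies against 711 to 778 in cytosol of HEL, and 3699 against 5080 to 5374 in MOLM-13. Of its members SNHG14 had the higher mean in P-bodies of both lines, at 210 against 48.1 CPM in HEL and 447 against 240 CPM in MOLM-13. The higher sum in HEL P-bodies thus came mostly from SNHG14. NEAT1 and KCNQ1OT1 had the lower mean in P-bodies of both lines. MALAT1, the most abundant, had 683 against 651 CPM in HEL and 3128 against 4741 CPM in MOLM-13. In MOLM-13 both sums were thus lower in P-body libraries, as YBX1 was, and in HEL only the mitochondrial sum was. Their part in the difference of YBX1 between lines was not tested. Total counts ran from 13153551 to 18071473 per library in HEL and from 5897625 to 11000536 in MOLM-13.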

How the data were processed

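RNA of P-body and cytosolic fractions of HEL and MOLM-13 was sequenced in 8 libraries, 2 per group, as the titles give them, with "cyto" read as cytosolic. The authors deposited 1 table per line with raw counts of reads for every gene symbol, as whole numbers. Per the submitters' processing notes, STAR, SAMtools 1.12, DESeq2 and the build GRCh38 were used. The read counter, annotation, strand setting and filters are not given in the sources used for this text, so reads of overlapping or antisense genes and of near-identical copies cannot be told apart. Per the labels' protocols, a miRNeasy Micro kit served for extraction of total RNA and a NEBNext Ultra II kit for the libraries.

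A set of 112 symbols on 1348 of 61544 rows was left out, since each stood on several rows, which removed 0.0193% to 0.0477% of counts per library. Counts were fitted with edgeR 4.0.16 in R 4.3.3 (TMM factors, filterByExpr with a smallest count of 10, quasi-likelihood test, Benjamini-Hochberg adjustment over all tested genes, threshold 0.05). P-bodies were compared with cytosol within each line (14772 genes tested in HEL, 14089 in MOLM-13). MOLM-13 was compared with HEL in a fit of all 8 libraries over 17477 genes, which also gave the difference between lines. The counts of both lines were joined by symbol. Levels are on the scale of each line, and those of the joint fit differ from them by at most 5.32%. The labels do not say whether replicates are separate cultures, so a p-value reflects the spread between libraries alone, and that spread may be technical. The chi-square between replicates, per degree of freedom, was 1.87 to 6.15, so the libraries of a pair were not copies of each other.

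Transcript length, GC content, coordinates and sequences came from GENCODE release 29 on GRCh38, to which 55547 of the 60196 symbols used were matched. One transcript per gene was used, the principal one and, among several, that with the longest coding sequence. All 9 members matched. The fits were tested on simulated data in which few genes changed and all genes of a comparison had the same spread. Such data cannot check the choice of scaling where many genes change.

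The members, the lists and the tests were chosen with earlier results of these data known. The genes named were the 9 members, pseudogenes and antisense transcripts of members with a mean of at least 10 counts in a line, the lowest p of each list in each direction and line, and the 5 genes nearest to YBX1. Where a gene named from a list was tested in the other line, its value there is also given. YBX2, LIN28A and CSDC2 were named because they were not tested. A result of the cold-shock list is not reported here. Alternatives were RLE size factors, library totals, no filter, a filter at 5 CPM in at least 2 libraries, DESeq2 1.42.0, a replicate block, leaving out each library, and removal of a spline trend with GC content and length.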

Additional observations from a re-analysis of the deposited data

Results flagged for a closer look

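CCDC124, one of the 5 genes nearest to YBX1, had changes of opposite sign in the lines with TMM factors. Both of its P-body libraries were above both cytosolic libraries in HEL and below them in MOLM-13. The log2 change was 0.21 in HEL and -0.9 in MOLM-13. Library totals moved the median HEL change of all genes by -0.33, more in size than the 0.21 of CCDC124, so its direction in HEL may depend on the scaling. The difference between lines in the fit of 8 libraries was -1.3. This difference was not tested, and the gene was picked for its likeness to YBX1, which has such a difference by choice.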

How the results depend on the processing

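The counts of members called kept within 1.5 times under RLE size factors, library totals, a filter at 5 CPM and a replicate block, and departed from it as follows. With the GC and length trend removed, 0 members were lower in HEL P-bodies and 1 in MOLM-13. No filter and DESeq2 each left 1 lower in MOLM-13, and leaving out single libraries gave 1 to 2. The directions that turned were YBX3 (0.02), G3BP1 (-0.07) and CAPRIN1 (-0.11) in HEL and TIA1 (-0.21) in MOLM-13 with the trend removed, CAPRIN1 in HEL with library totals (-0.14), and YBX3 in the difference between lines without HEL cytosol replicate 1 (0.06; over all libraries left out it ran from -0.45 to 0.06). FXR2 in the difference between lines, at -0.02, had the other sign with RLE size factors, DESeq2 and no filter (0.05), with library totals (0.06) and without some single libraries (up to 0.36). The cause was not tested. Over all genes, library totals called 6761 lower in HEL P-bodies, and in MOLM-13 P-bodies 2903 higher and 7154 lower, against 4006, 4558 and 4015 with TMM, and DESeq2 called 2623 lower in MOLM-13.

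The replicate numbers are shared by the groups, but nothing says what they mark, and the deviations of same-numbered libraries correlated at 0.157 in HEL and -0.002 in MOLM-13. With the replicate block, 4024 genes were higher and 3972 lower in HEL and 4574 and 4015 in MOLM-13, with 6 members higher and 2 lower in each line. All 45 member values kept their direction and, where tested, their call. Depth limits FXR2 most, with 85 to 103 counts per MOLM-13 library.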
